A study of Mus musculus with 9 samples.

Results

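In mouse colon epithelium, 5300 stretches of chromatin were listed as accessible in both ATAC-seq libraries labelled DKO and in neither library labelled Wt, and are called gained regions here. They were chosen by merging the overlapping peaks of the 4 deposited ATAC lists on chromosomes 1 to 19 and X, and by keeping each merged region with a peak in DKO_1 and in DKO_2, none in Wt_1 or Wt_2, and no overlapping Cdx2 ChIP-seq peak. They made up 4.98% of all 106425 merged regions. The peak calls chose the members, so their presence in DKO and absence in Wt is a description and was not tested. The series held 9 libraries from large intestinal cells, enriched as epithelium from fresh colon with EDTA. DKO mice were labelled Cdx1-/-Cdx2f/f vill (+) and Wt mice Cdx1-/-Cdx2f/f vill (-), so the controls also carried the Cdx1 null and the floxed Cdx2 alleles, and the labels do not spell out vill. ATAC-seq, in which a transposase cuts and tags accessible DNA, and RNA-seq were each run on 2 libraries per label after tamoxifen for 6 days. Cdx2 ChIP-seq came as 1 library labelled Wt, tagged untreated although its treatment protocol also names tamoxifen. Ages were not given, and the labels do not state whether the replicates were separate animals. DKO and Wt below mean the libraries labelled so.

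Most of the genome is wrapped in nucleosomes, and the stretches that transposase can enter are mainly promoters, where transcription starts, and enhancers, which can lie far from the gene they act on. Cdx2 and Cdx1 are homeobox transcription factors of the intestinal epithelium, and Cdx2 is known for keeping the identity of intestinal cells, whose loss lets genes of the stomach be expressed. A region that opens in one tissue state can hold sites for other factors, such as AP-1, GATA, KLF or RUNX proteins, whose short recognition letters can be searched for in the sequence.

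Of the gained regions, 78 overlapped a promoter window, defined as 250 bases before to 50 bases after a RefSeq start. The 8 sequences below are the parts of such windows that lie inside a gained region and before the start. At Paip1, Btnl4 and Sall1 the start used lies inside the RefSeq gene span, so the printed bases lie inside the span too. The first 4 belong to genes that the authors' RNA table called changed, and the other 4 had the highest peak ranks among windows with at least 150 bases covered. All are RefSeq GRCm38.p6 sequence, written 5′ to 3′ on the strand of the gene, and capitals mark a match to one of 12 motifs searched on both strands (AP-1 TGANTCA, CRE TGACGTCA, Cdx TTTATNG, TEAD GGAATG, KLF/SP GGGNGGGG, AGATAA for GATA factors, RUNX TGTGGT, HNF4 CAAAGTCCA, FOX TGTTTAC, CEBP TTGCNNAA, E-box CAGCTG and SOX ACAATGG). Scd3, a stearoyl-CoA desaturase, lies at chr19:44203117-44203287 on the plus strand. Paip1, a regulator of translation that binds the poly(A)-binding protein, lies at chr13:119428350-119428437 on the plus strand. Btnl4, a butyrophilin-like protein, lies at chr17:34475973-34476161 on the minus strand, and Sall1, a zinc finger transcription factor, at chr8:89043592-89043762 on the minus strand. Ldoc1, a leucine zipper protein, lies at chrX:61709410-61709610 on the plus strand, and Gm32810, a predicted gene, at chr1:112416919-112417070 on the minus strand. Tex12, a protein of the synaptonemal complex, lies at chr9:50561269-50561418 on the minus strand, and Aff2, of the AF4/FMR2 family, at chrX:69360081-69360330 on the plus strand.
Scd3: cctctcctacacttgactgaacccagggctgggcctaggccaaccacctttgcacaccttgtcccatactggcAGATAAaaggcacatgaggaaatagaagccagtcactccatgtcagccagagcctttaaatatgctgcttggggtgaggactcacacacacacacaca
Paip1: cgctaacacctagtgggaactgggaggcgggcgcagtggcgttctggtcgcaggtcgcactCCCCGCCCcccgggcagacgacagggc
Btnl4: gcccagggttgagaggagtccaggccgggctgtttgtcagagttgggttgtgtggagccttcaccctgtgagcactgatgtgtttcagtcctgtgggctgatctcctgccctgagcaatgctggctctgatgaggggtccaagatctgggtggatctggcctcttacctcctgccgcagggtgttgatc
Sall1: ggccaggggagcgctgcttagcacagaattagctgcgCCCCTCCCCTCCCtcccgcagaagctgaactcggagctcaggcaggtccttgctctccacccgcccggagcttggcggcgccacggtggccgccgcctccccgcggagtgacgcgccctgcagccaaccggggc
Ldoc1: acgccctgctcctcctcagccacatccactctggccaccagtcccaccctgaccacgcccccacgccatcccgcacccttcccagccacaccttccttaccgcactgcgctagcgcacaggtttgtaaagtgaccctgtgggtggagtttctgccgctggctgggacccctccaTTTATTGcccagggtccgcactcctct
Gm32810: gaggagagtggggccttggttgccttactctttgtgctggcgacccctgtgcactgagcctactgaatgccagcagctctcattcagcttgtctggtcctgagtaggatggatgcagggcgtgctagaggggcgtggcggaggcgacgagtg
Tex12: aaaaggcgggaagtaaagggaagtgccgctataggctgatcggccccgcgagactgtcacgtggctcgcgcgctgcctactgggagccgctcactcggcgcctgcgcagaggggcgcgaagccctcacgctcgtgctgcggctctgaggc
Aff2: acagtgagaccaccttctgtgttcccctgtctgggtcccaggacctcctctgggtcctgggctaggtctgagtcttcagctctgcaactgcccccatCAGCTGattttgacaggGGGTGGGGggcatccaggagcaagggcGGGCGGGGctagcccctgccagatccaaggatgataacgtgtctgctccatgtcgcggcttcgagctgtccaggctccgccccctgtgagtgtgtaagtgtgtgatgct
Scd3 held GATA letters and no other of the 12 motifs in its 171 bases, 52.0% of which were G or C. Of the 12 motifs, Paip1 and Sall1 held KLF/SP letters alone, in sequence with 71.6% and 72.5% G or C, and in Sall1 the capitals join overlapping matches. Ldoc1 held Cdx letters although, by the rule, no Cdx2 peak overlapped its region, and Aff2 held KLF/SP and E-box matches. Btnl4, Gm32810 and Tex12 held none of the 12. A match is a description of the letters and not of a bound site, and no match says only that these letters are not in this window.

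The 2 DKO lists differed from each other more than the 2 Wt lists did. DKO_1 held 40101 peaks and DKO_2 held 23961, against 48163 in Wt_1 and 53943 in Wt_2. Of the DKO_1 peaks, 25.8% overlapped a DKO_2 peak, whereas 73.3% of Wt_1 peaks overlapped a Wt_2 peak. In DKO_1, 5.74% of peaks touched a promoter window, against 18.1% in DKO_2 and 21.0% and 19.5% in Wt_1 and Wt_2. DKO_2 overlapped the Wt lists more often than DKO_1 did, in 36.2% and 38.5% of its peaks against 14.1% and 15.4%. The share of peaks on chromosome X was 3.15% and 3.41% in the DKO lists and 1.84% and 1.74% in the Wt lists, and chromosome Y held 0 peaks in each DKO list and 4 and 6 in the Wt lists. The labels do not give sex. In the authors' deposited table the Y-linked genes Kdm5d, Uty, Ddx3y and Eif2s3y were not called. Their log2 ratios (DKO over Wt, the authors' log2 fold change) were 0.06, 0.53, 0.10 and 0.10, with SEs of 0.87, 0.73, 0.92 and 0.92. These values are from the RNA libraries, and with such SEs they do not show whether the labels match in sex. For Cdx2 the authors' deposited table held -0.27 (adjusted p = 0.301, SE 0.21) and for Cdx1 -1.06 (adjusted p = 2.08e-05, SE 0.23). Cdx2, the targeted gene, was thus not called lower, and these values do not check its deletion. Cdx1 had a mean of 2595 normalized counts by the authors' deposited table although all strains were labelled Cdx1-/-, and which part of the gene its null allele lacks was not analysed here. How the difference between the DKO libraries bears on the gained regions was not tested beyond the values without each library given below.

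Of the 106425 merged regions, 36068 had a peak in 1 DKO list and no Wt list, 27542 of them (without a Cdx2 peak) in DKO_1 alone and 8500 in DKO_2 alone. Peaks in both DKO lists and no Wt list were found in 5305 regions, of which 5 overlapped a Cdx2 peak and were left out. The mirror class, with a peak in both Wt lists and no DKO list, held 25301 regions, of which 23753 had no Cdx2 peak and are called lost here. All 4 lists held 3772 regions, of which 3655 had no Cdx2 peak and are called shared here. Cdx2 peaks overlapped 0.0943% of the regions in both DKO lists and no Wt list, 6.12% of those in both Wt lists and no DKO list, and 3.10% of those in all 4 lists. The ChIP library came from Wt cells, so a Cdx2 peak at a site closed in Wt could be seen only as far as Wt cells bound it.

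**Figure D1:**
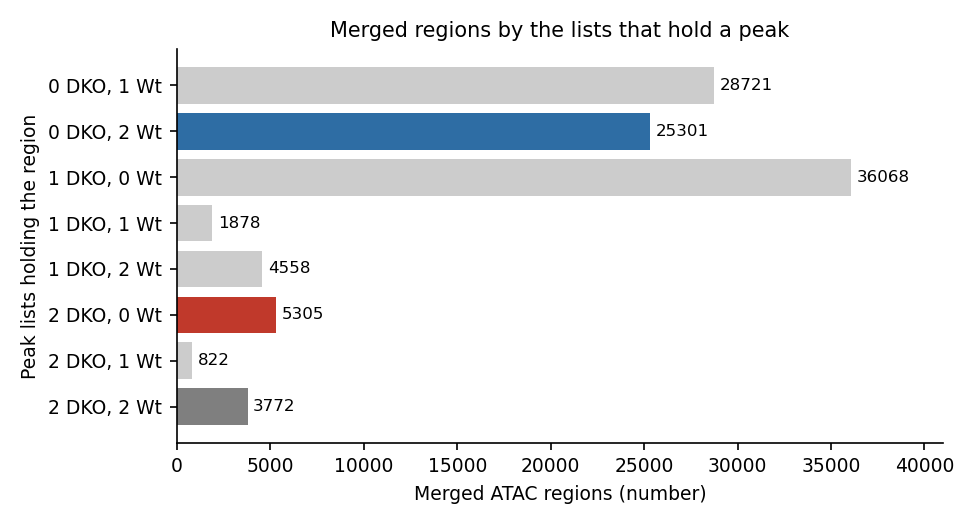
Number of merged ATAC regions (horizontal axis) by how many DKO and Wt lists hold a peak (vertical axis). The red bar is the 5305 regions from which the gained regions were taken, the blue bar the mirror class of 25301 and the dark grey bar the 3772 regions in all 4 lists.

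The gained regions were wider than lost and narrower than shared ones. Their median width was 316 bp, from 154 to 1326 bp, against 221 bp for lost and 788 bp for shared regions. Over whole lists, peaks had a median width of 181 and 228 bp in DKO_1 and DKO_2 and 151 and 153 bp in Wt_1 and Wt_2. Shared regions also merge peaks of all lists. How far these list widths and the merging set the region widths was not tested. Fold enrichment over local background, the authors' own value for each peak, had a lowest, median and highest value of 2.06, 4.27 and 14.8 in DKO_1. In DKO_2 the same 3 values were 2.13, 3.87 and 12.3. In the shared regions the medians were 4.05 in DKO_1 and 4.36 in DKO_2, so the gained regions had the higher median in DKO_1 and the shared regions in DKO_2. Within its own list, the median gained peak stood at percentile 68.0 of fold enrichment in DKO_1 and at 54.4 in DKO_2. Both peaks had a -log10 q of at least 3 in 2674 regions (50.5%), of at least 5 in 585 (11%) and of at least 10 in 30 (0.566%).

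By the rule, a DKO_1 and a DKO_2 peak had to overlap in each gained region. The closeness of their summits is therefore largely fixed by the choice of members and does not measure agreement of the libraries. The distance between the DKO_1 and the DKO_2 summit had a median of 63.0 bp, against 116 bp in the wider shared regions and 33.0 bp between the Wt summits of lost regions. In 5209 regions DKO_1 gave a single peak, and in 5239 DKO_2 did. Log2 fold enrichment in DKO_1 and DKO_2 had a Pearson r of 0.52 and a Spearman rho of 0.47 across the 5300 gained regions. The corresponding values were 0.55 and 0.50 across the 3655 shared regions. These correlations are across regions of the same 2 libraries, which share sequence and mappability, and they describe only these libraries.

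**Figure D2:**
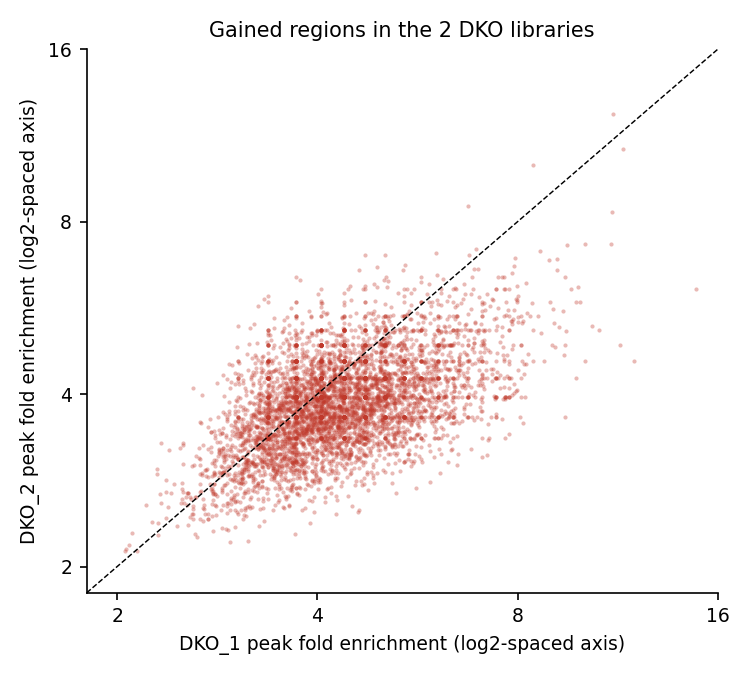
Fold enrichment of the DKO_1 peak (horizontal axis) and the DKO_2 peak (vertical axis) for each of the 5300 gained regions, on log2-spaced axes, with the dashed line at equal values. Most points lie between 3 and 8 on the horizontal axis, and the cloud widens to higher values in DKO_1 (median 4.27) than in DKO_2 (median 3.87).

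The members and near-misses closest to the listing threshold were the following. At chr11:53065647-53065826 the DKO_1 peak had a -log10 q of 1.31 and the DKO_2 peak 4.16. At chr13:95065744-95066035 the values were 1.32 and 4.16, and at chr14:66910230-66910437 they were 1.32 and 3.05. These 3 regions entered with one DKO peak just above the lowest listed value. On the other side, 812 regions had a peak in both DKO lists, no Cdx2 peak and a peak in 1 Wt list. Of these, chr6:41605865-41606463 had 4.58 in DKO_1, 4.65 in DKO_2 and 1.31 in Wt_2. At chr4:137225648-137226051 the values were 2.57, 2.5 and 1.32, and at chr1:180619364-180619724 they were 6.76, 2.97 and 1.33. Each of these 3 was kept out by 1 Wt_2 peak at the edge of listing.

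Gained regions lay on every chromosome analysed, from 157 on chromosome 19 to 371 on chromosome 1, and took between 3.86% (chromosome 11) and 5.59% (chromosome 8) of the merged regions of each autosome. On chromosome X they took 8.80% of the merged regions, against 4.89% over all autosomes. Chromosome X held 215 of the 5300 gained regions, 4.06% with an exact 95% interval of 3.54% to 4.62%. The share was 1.64% among lost and 2.98% among shared regions, and 3.02% and 3.92% among the regions in DKO_1 alone and DKO_2 alone. The higher X share was therefore present in each DKO list on its own. Whether it goes with the sex of the animals cannot be told apart from the labels. The median gap between neighbouring gained regions was 226 kb, and 237 of 5280 gaps (4.49%) were under 10 kb.

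The strongest gained regions, by mean percentile rank over the 2 DKO lists, lay away from promoters and mostly beside genes with no measured RNA. The first was chrX:75734670-75734993, with a fold enrichment of 11.5 in DKO_1 and 10.7 in DKO_2, inside the span of 4933407K13Rik and 9518 bp from the pseudogene Gm7153. The next was chr9:46132717-46133119, with 11.1 and 12.3, inside Sik3, a salt-inducible kinase. Then came chr12:55538391-55538890 with 11.1 and 8.32, in no annotated span. Both libraries placed these 3 peaks near the top of their lists. At chr7:93086162-93086595 the values were 10.1 and 7.31, 6283 bp from Fam181b. Inside Myo16, an unconventional myosin, chr8:10185312-10185746 had 9.51 and 7.29. Among the 12 strongest, the nearest gene had a value in the authors' deposited table in 2 cases, the pseudogenes Gm5550 and Magef1, with log2 ratios of 0.09 (adjusted p = 0.899) and 0.97 (adjusted p = 0.0631), and neither was called.

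Gained regions lay farther from strand-aware gene starts than lost and shared regions did. Only strand-aware starts were counted for these distances, and many genes have none. With any RefSeq start, or either span end where the strand was unknown, 42.2% of gained regions lay within 10 kb. Of the 5096 gained regions on chromosomes with a strand-aware start, 51 (1.00%) covered a start, 24.9% lay within 10 kb of one and 67.3% within 50 kb, with a median distance of 26816 bp. Lost regions covered a start in 17.5% and lay within 10 kb in 48.3%, with a median of 10882 bp. Shared regions covered a start in 65.6%. A member cannot overlap a Wt peak by the rule, so a start covered by a Wt peak could not itself lie in a gained region, and part of this difference is fixed by the choice of members. Of all gained regions, 56.3% lay inside a RefSeq gene span and 45.9% inside a protein-coding one, against 63.1% of lost and 91.5% of shared regions for protein-coding spans. Exons and introns were not separated, because only gene spans were used.

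**Figure D3:**
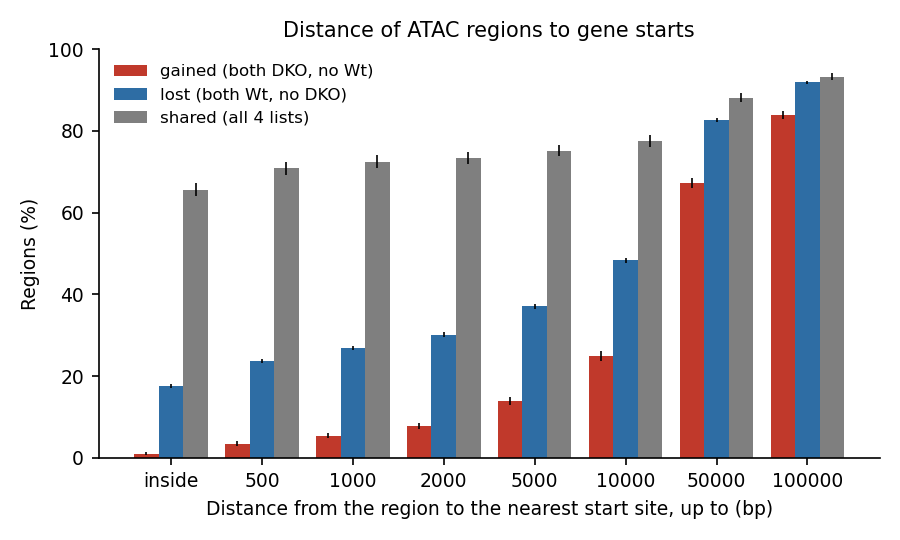
Share of gained, lost and shared regions (vertical axis, percent, with exact 95% binomial intervals) by distance to the nearest strand-aware start. Each bar counts regions at or under the distance on the horizontal axis (bp). Only 1.00% of gained regions covered a start, against 65.6% of shared regions, and the classes differ least at 100000 bp, where gained regions reach 83.9%.

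Close to starts, gained regions lay more often after the start than before it. Among those within 1 kb of a start and not covering it, 149 lay downstream and 74 upstream, a downstream share of 66.8% with an exact interval of 60.2% to 73.0%. The share was 58.4% among lost and 77.8% among shared regions, so a downstream side was the more frequent one in every class. Where the start used is internal, a region before it can still lie inside the gene span. Some gained regions bordered chromatin that was open in Wt. A Wt ATAC peak lay within 200 bp of 4.72% of them, within 1 kb of 12.5% and within 10 kb of 46.3%. Cdx2 peaks were sparse around them, within 10 kb of 5.19% of gained, 11.7% of lost and 8.43% of shared regions, and within 50 kb of 20.5%, 36.3% and 29.0%.

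Several of the genes with the strongest RNA change had such a region directly beside a RefSeq start that a Wt peak covered. Psapl1, which encodes a prosaposin-like protein at chr5:36204021-36206568, had a gained region from 101 to 380 bp after its start, with a fold enrichment of 2.80 in DKO_1 and 3.04 in DKO_2. Wt_2 had a peak of 4.28 over the start itself, from -105 to 50 bp, and the 3 other lists had no peak over it. The promoter of Psapl1 was therefore listed as open in 1 Wt library, and the gained region marks open chromatin next to it. Adgrg2, an adhesion G protein-coupled receptor, had its gained region at 385 to 620 bp with 4.38 in DKO_1 and 4.01 in DKO_2. Its start was covered by a peak in Wt_1 (9.80), Wt_2 (7.01) and DKO_2 (3.80), and a DKO_1 peak (5.17) ended 32 bp before it. The start used here, and the one used at Fam20a, lie inside the RefSeq gene span. At Fam20a, a pseudokinase of the secretory pathway, the gained region at 75 to 441 bp had 3.44 in DKO_1 and 3.62 in DKO_2 and lay between Wt peaks over the start (4.39 and 4.51) and further into the gene (5.85 and 5.77).

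**Figure D4:**
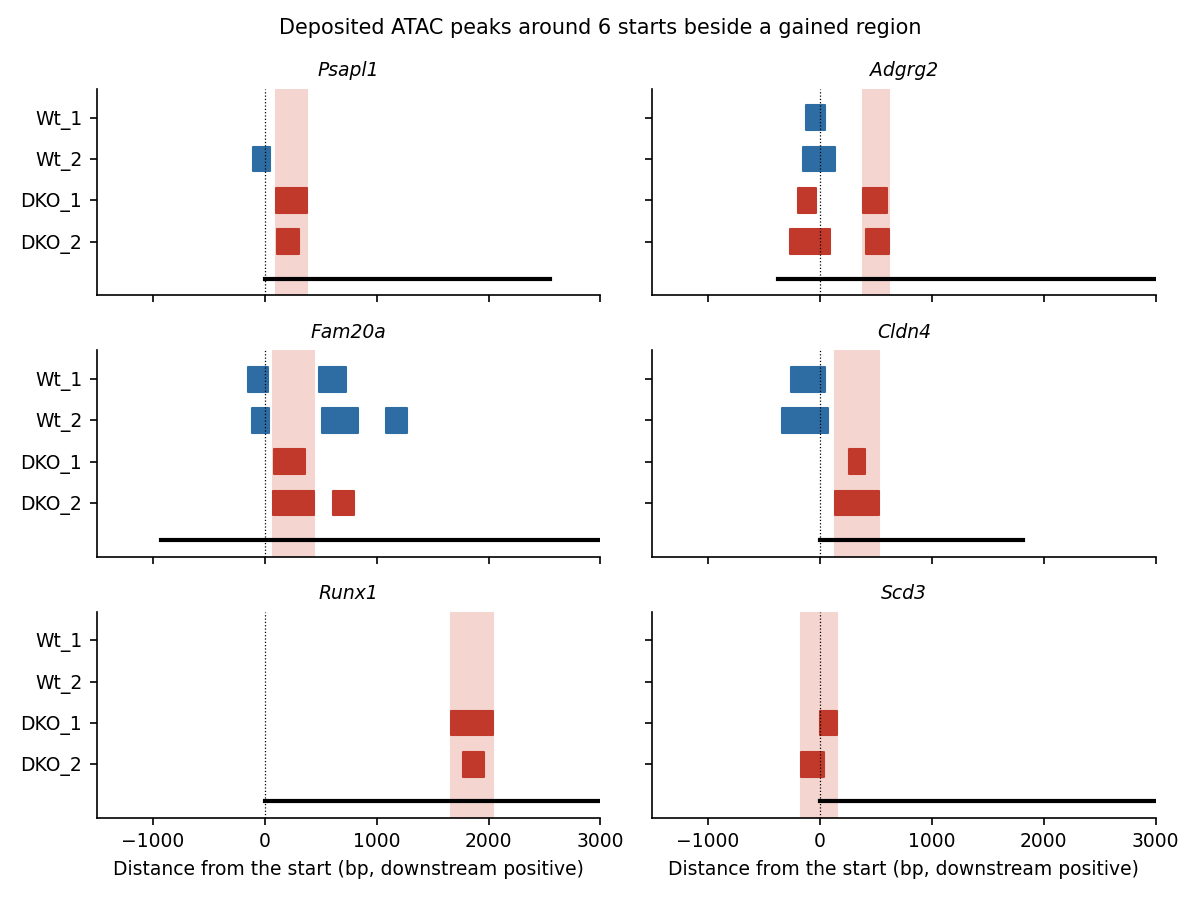
Deposited ATAC peaks (blue Wt, red DKO) around the start of 6 genes, with the distance from the start in bp on the horizontal axis, 1 row per library, the gained region shaded and the gene span as a black line. At Psapl1, Adgrg2, Fam20a and Cldn4 a Wt peak covers the start beside the shaded region. At Runx1 and Scd3 no Wt peak lies in the window. The start used at Adgrg2 and at Fam20a lies inside the gene span.

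The RNA calls of genes with a start within 10 kb of a gained region stood near those of all genes, with fewer higher than lower calls. The authors' deposited table gave 16314 genes with a single RefSeq position, of which 3156 (19.3%) were called higher and 3077 (18.9%) lower in DKO at an adjusted p under 0.05. Of these genes, 1043 (6.39%) had a start within 10 kb of a gained region. For genes without a known strand, either end of the span was taken as a start here and below. By the authors' deposited table, 176 of the 1043 (16.9%, exact interval 14.6% to 19.3%) were called higher and 242 (23.2%, 20.7% to 25.9%) lower. The median log2 fold change in the authors' deposited table was -0.12 for them and -0.01 for all genes. Their median mean count was also lower, 196 against 294 normalized counts. The share called higher was below the background and the share called lower above it, and neither difference was tested. With each region linked to its nearest gene instead, 20.2% were called higher and 20% lower by the authors' deposited table, so the share called higher was then above the background.

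The shares varied between classes of region, and none of the differences between classes was tested. Beside lost regions the authors' deposited table called 19.1% of genes higher and 19.8% lower, and beside shared regions 30.7% and 13.3%. Genes beside regions in DKO_1 alone were called in 18.7% and 19.8%, and those beside regions in DKO_2 alone in 14.8% and 23.5%. The gained regions thus lay between the regions of the single lists for the share called higher. By number of gained regions within 10 kb or inside the span, the authors' deposited table called 18.6% of genes with 1 region higher and 21.5% lower, 19.7% and 26.4% with 2, and 10.7% and 28.6% with 3 or more (84 genes). Genes with 3 or more regions also had a lower median mean count, 111 against 305 normalized counts for genes with none. A longer span can hold more regions, and span length was not accounted for. The genes with the most regions, measured or not, spanned 208314 bp (Efcab6) to 2751187 bp (Igh).

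By peak strength the shares had wide intervals. Beside the 10% of gained regions with the highest mean rank, the authors' deposited table called 15 of 60 genes (25%, 14.7% to 37.9%) higher and 11 (18.3%) lower. Beside the regions under the median rank, the authors' deposited table called 15.4% of 726 genes higher and 25.3% lower. The intervals of these 2 sets overlap, that of the smaller set covers the background of 19.3%, and their difference was not tested. With a -log10 q of at least 5 in all lists, 19.1% of 115 genes were called higher and 22.6% lower by the authors' deposited table. This setting also dropped weaker Wt peaks. Its 678 regions thus outnumbered the 585 gained regions with both DKO peaks at 5 or more, and some held a weaker Wt peak. Within 1 kb of a start, 143 genes were linked, of which 16.1% were called higher and 26.6% lower by the authors' deposited table.

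**Figure D5:**
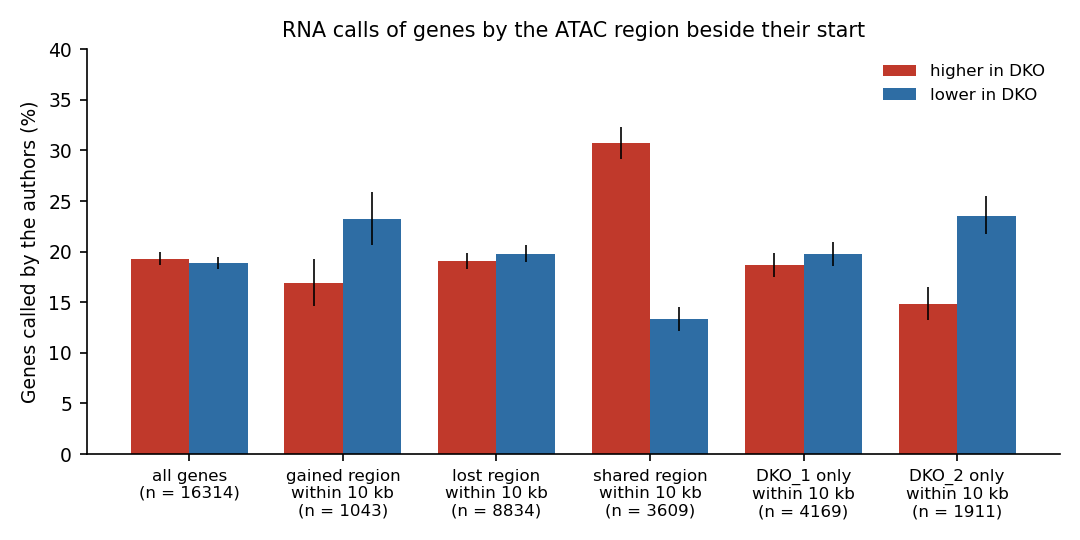
Share of genes called higher (red) or lower (blue) in DKO by the authors' deposited table (vertical axis, percent, exact 95% binomial intervals), for all genes and for genes with a region of each class within 10 kb of their start (horizontal axis, with the number of genes). Beside gained regions 16.9% were called higher and 23.2% lower, against 19.3% and 18.9% of all genes.

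Many gained regions had no gene start nearby. Any RefSeq start lay within 10 kb of 2234 regions (42.2%). Of the protein-coding genes beside gained regions, 66.1% had a value in the authors' deposited table, as did 66.4% of all protein-coding genes, against 87.2% beside lost and 90.1% beside shared regions. By biotype, 45.2% of the genes beside gained regions were protein-coding, 27.5% were lncRNA genes and 16.3% pseudogenes, close to the 43.7%, 25.6% and 19.9% of all RefSeq genes.

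The 10 genes highest in RNA among those beside a gained region and above a mean of 50 normalized counts included secreted, membrane and lipid-synthesis proteins. Psapl1 had a log2 ratio of 7.92 (adjusted p = 9.30e-63, SE 0.47) by the authors' deposited table. In the authors' deposited table Adgrg2 was higher by 5.25 on the log2 scale (adjusted p = 2.49e-29, SE 0.46) and Fam20a by 3.99 (adjusted p = 4.41e-13, SE 0.54). Hrct1 had 7.08 (adjusted p = 2.25e-26, SE 0.64) by the authors' deposited table, with a region 6838 bp before its start of 4.23 in DKO_1 and 3.40 in DKO_2. Trex2, a DNA exonuclease on chromosome X, had a log2 ratio of 6.54 (adjusted p = 5.30e-11, SE 0.96) by the authors' deposited table and a region 901 bp into the gene of 3.42 and 3.73. Cers3, a ceramide synthase of barrier epithelia, had 5.86 (adjusted p = 4.83e-27, SE 0.53) by the authors' deposited table and 2 gained regions, both inside its span. Measured from an internal RefSeq start, they lay 9260 bp before it (3.63 in DKO_1, 4.89 in DKO_2) and 39099 bp after it (5.11 and 4.31). Each of these 6 genes was called higher and had 1 gained region within 10 kb of a start.

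The other 4 of the highest were an immune protease, a lipid transporter, a clock gene and a stress ligand. Mmp9, a matrix metalloproteinase that neutrophils store, had a log2 ratio of 4.16 (adjusted p = 6.86e-10, SE 0.66) by the authors' deposited table and a region of 2.97 in DKO_1 and 3.18 in DKO_2 at 8339 bp from an end of its span. The neutrophil marker list moved with it: 13 of its 15 measured genes were called higher by the authors' deposited table, with a median log2 ratio of 4.10. The part of neutrophils in the ATAC or RNA values was not tested. Spns2, a sphingosine phosphate transporter, had 3.84 (adjusted p = 8.28e-34, SE 0.31) by the authors' deposited table and a region of 3.47 and 2.95, 6923 bp after an internal RefSeq start. Ciart, a circadian repressor, and Ulbp1, a ligand of a natural killer cell receptor, each had 3.83 (SE 0.42 and 0.39) by the authors' deposited table. Their gained regions had 4.08 and 3.77 at 7600 bp from the start of Ciart, and 4.29 and 5.08 at 1475 bp into Ulbp1.

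The 8 lowest genes included a metal transporter, a calcium-binding protein and a receptor of vessels. Slc30a10, a manganese exporter, had a log2 ratio of -13.44 (adjusted p = 1.04e-15, SE 3.33) by the authors' deposited table, and a gained region 3375 bp into the gene of 4.48 in DKO_1 and 3.21 in DKO_2. Flt1, a receptor for vascular endothelial growth factor, had -7.13 (adjusted p = 6.27e-06, SE 1.40) by the authors' deposited table, with one region 574 bp after a RefSeq start inside its span (3.08 and 3.52) and another at 69231 bp (5.21 and 3.34). Tgfb1i1, a focal adhesion protein of smooth muscle, had -6.89 (SE 0.91) and Sparcl1, a matricellular protein, -5.93 (SE 1.60) by the authors' deposited table. Both genes had gained regions of 2.42 to 5.92 beside a fall in RNA. Calb2 (calretinin) had -9.60, Prex2 -6.77, Fndc5 -6.33 and Slc8a1, a sodium-calcium exchanger, -6.30 in the authors' deposited table.

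Genes of stroma and of plasma cells were also lower beside gained regions. Col1a1, a fibrillar collagen, had a log2 ratio of -5.27 (adjusted p = 1.81e-55, SE 0.33) by the authors' deposited table. Its gained region, of 2.65 in DKO_1 and 3.09 in DKO_2, lay 9892 bp beyond the higher-coordinate end of its span. Cdh5, the endothelial cadherin, named after its values were seen, had -5.60 (adjusted p = 1.28e-07, SE 1.01) by the authors' deposited table. Its region, one of the taller of these genes (6.99 and 4.22), lay 3341 bp beyond the higher-coordinate end of its span. The strands of Col1a1 and Cdh5 were not known here, so these ends need not be the starts. Igkc, the kappa light chain constant gene, had -3.42 (SE 0.34) by the authors' deposited table and a region of 4.56 and 3.47. Of the stroma, muscle and endothelium markers, 19 of 20 measured genes were called lower by the authors' deposited table, with a median log2 ratio of -5.20, and of the B and plasma cell markers 7 of 11 were. In bulk libraries fewer cells of a type and less RNA per cell cannot be told apart, and the part of these cells in the gained regions was not tested. Of the epithelium markers, 2 of 12 were called higher and 5 lower by the authors' deposited table, with a median of -0.34. Without the stromal and the B and plasma cell markers, the shares beside gained regions were 16.9% higher and 23.0% lower. This left 1040 of the 1043 linked genes, so the shares could hardly move, and it does not measure the part of these cells.

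Junction genes gave the largest group of list members that were called. The list of tight junction and adhesion genes had 5 of 33 measured members beside a gained region, 3 higher and 2 lower, and as a whole 13 of 33 higher and 5 lower by the authors' deposited table. Cldn4, a claudin at chr5:134945123-134946934, had a log2 ratio of 1.57 (adjusted p = 1.88e-14, SE 0.20) by the authors' deposited table. Its gained region lay 133 to 530 bp after the start with 3.15 in DKO_1 and 3.07 in DKO_2, and both Wt lists had a peak over the start (3.89 and 4.36). Cldn3 and Cldn7, 2 more claudins, had similar regions 173 bp (3.02 and 3.14) and 596 bp (3.38 and 3.37) after a RefSeq start, which in Cldn7 lies inside the span. Their log2 ratios were -0.64 and -0.56 (adjusted p = 0.00768 and 0.0121, SE 0.21 and 0.20) by the authors' deposited table. The 3 claudins thus had gained regions of like height and place and RNA calls in opposite directions. Itga3, an integrin that binds laminin, had 0.61 (adjusted p = 0.00914, SE 0.20) by the authors' deposited table and 2 regions.

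Transcription factor and immediate early genes beside gained regions were few. Runx1, a transcription factor known from blood cell formation, had 3 gained regions and a log2 ratio of 2.92 (adjusted p = 8.09e-19, SE 0.32) by the authors' deposited table. One lay 1662 bp after the start (4.49 in DKO_1, 3.15 in DKO_2), with the nearest Wt peak 14350 bp away, and the other 2 lay deeper in the gene, 90154 and 91117 bp from another, internal RefSeq start, at chr16:92606661-92607175 (3.32 and 3.05) and chr16:92605721-92606212 (3.63 and 3.54). Foxa3, a forkhead factor also found in goblet cells, had -1.67 (adjusted p = 1.05e-05, SE 0.37) by the authors' deposited table and a region of 4.89 and 3.54. Of the gut transcription factor list, 2 of 33 measured genes were beside a gained region, and 9 were called higher and 12 lower by the authors' deposited table. Fosb and Fosl1, AP-1 subunits, had 1.37 (adjusted p = 0.00316, SE 0.45) and 1.96 (adjusted p = 0.000102, SE 0.50) by the authors' deposited table, with regions of 2.97 and 2.71 and of 4.00 and 3.43. They were 2 of the 31 measured AP-1 and immediate early genes, of which 15 were called higher and 1 was called lower by the authors' deposited table.

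Genes of the NF-kB and antimicrobial lists beside gained regions gave 1 higher call and 1 lower call among 5. Icam1, a leukocyte adhesion molecule, had a log2 ratio of 2.39 (adjusted p = 4.12e-10, SE 0.37) by the authors' deposited table and a region 8947 bp before the start (3.13 in DKO_1, 3.05 in DKO_2). Nfkb1 and Il18 had -0.19 (adjusted p = 0.532) and -0.47 (adjusted p = 0.193) by the authors' deposited table and were not called, while 18 of the 30 measured genes of the NF-kB and cytokine list were called higher. Pigr, the receptor that carries antibodies into the gut lumen, had -0.20 (adjusted p = 0.399) by the authors' deposited table. Lyz2, a lysozyme of macrophages, had -2.13 (adjusted p = 2.13e-14, SE 0.27) there. Of the 25 measured antimicrobial and mucosal defence genes, 10 were called higher and 4 lower by the authors' deposited table. Lyz2 and H2-Aa are on the macrophage and dendritic cell list, of whose 18 measured genes 3 were called higher and 3 lower. H2-Aa, a class II histocompatibility chain, had 0.74 (adjusted p = 0.0141, SE 0.27) by the authors' deposited table and one of the taller regions of the named genes, 6.06 in DKO_1 and 6.46 in DKO_2.

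Genes of mature colonocytes and goblet cells beside gained regions were mostly called lower. Of 5 goblet cell genes beside a gained region, 4 were called lower and 0 higher by the authors' deposited table, and of the whole list 19 of 23. Creb3l4, Creb3l1 and Foxa3 were among them, at log2 ratios of -1.24, -0.63 and -1.67 in the authors' deposited table. Fabp2, the intestinal fatty acid binding protein, had -4.14 (adjusted p = 2.63e-42, SE 0.30) by the authors' deposited table beside a region of 4.34 in DKO_1 and 3.46 in DKO_2 at 9975 bp. Emp1, an epithelial membrane protein, had -1.66 (adjusted p = 1.41e-07, SE 0.30) by the authors' deposited table and a region 1634 bp after an internal RefSeq start (3.51 and 3.42). Both absorptive colonocyte genes beside a gained region were thus lower, as were 22 of the 30 measured genes of that list. Cyp4b1, a cytochrome P450, and Abcc3, an efflux transporter, were also lower, at -2.58 and -1.62 in the authors' deposited table, and the Cyp4b1 region 2332 bp before the start had 6.70 and 5.30.

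Stem cell genes beside gained regions gave calls in each direction. Of 7 stem and Wnt genes beside a gained region, 2 were called higher and 2 lower, and of the whole list 6 and 4 of 23 in the authors' deposited table. Cd44, a hyaluronan receptor, had a log2 ratio of 0.86 (adjusted p = 0.000927, SE 0.24) by the authors' deposited table and a region 1770 bp before the start (4.82 in DKO_1, 4.70 in DKO_2). Ascl2, a transcription factor of crypt stem cells, had -2.24 (adjusted p = 8.61e-06, SE 0.50) and Prom1, which encodes the surface antigen prominin, -1.09 (adjusted p = 0.000142, SE 0.27) by the authors' deposited table. Ascl2 and Prom1 had regions of 3.93 and 2.94 and, 132 bp after a RefSeq start inside Prom1, of 3.08 and 3.41. Among 3 fatty acid genes beside a gained region, 0 were called higher and 2 lower, whereas of the whole list 13 of 26 were called higher and 6 lower by the authors' deposited table.

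Gastric genes beside a gained region were 2 of the measured members of their list. Of 19 measured gastric epithelium genes, 14 were called higher and 0 lower by the authors' deposited table, and of the 2 beside a gained region 1 was called higher. Gkn1, a gastrokine of the stomach surface named here after its values were seen, had a log2 ratio of 7.57 (adjusted p = 6.79e-05, SE 2.87) by the authors' deposited table at a mean of 21.7 normalized counts. Its region lay 3100 bp before the start, with 4.09 in DKO_1 and 4.16 in DKO_2 and no Wt peak within 18570 bp. Ctse, a cathepsin of the stomach lining, had -0.20 (adjusted p = 0.515, SE 0.23) by the authors' deposited table and was not called, with a region of 4.08 and 3.96 that ended 67 bp from a Wt_1 peak. The enteroendocrine and tuft cell list had 0 members beside a gained region. Of all genes on the 14 pathway lists with a position, measured or not, 38 of 376 (10.1%) had a gained region beside them. The share was 6.39% among the genes of the authors' deposited table, which are measured ones only, so the 2 shares have unlike bases.

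A few genes had 4 or more gained regions near their start or inside their span. Atrnl1, an attractin-like protein, had 5, with fold enrichment from 3.66 to 5.58 in DKO_1 and from 3.67 to 5.17 in DKO_2, and was not called (log2 fold change -0.43, adjusted p = 0.268, in the authors' deposited table). Auts2, Cdk6, Dock9, Ncald and Osbpl10 had 4 each. Of these 5, Auts2, a nuclear protein of neural development, was called, at -2.31 (adjusted p = 2.04e-18, SE 0.26) by the authors' deposited table. Chosen after the counts were seen, the protein-coding genes with the most regions included Cdh13, the T-cadherin, with 7 over a span of 1184913 bp. Cdh13 had a log2 ratio of -4.17 (adjusted p = 5.94e-06) by the authors' deposited table. The clustered protocadherins, adhesion proteins of neurons that share a genomic cluster, had 29 of 58 genes beside 12 gained regions. Of these, 9 were measured and 0 were called in the authors' deposited table, with log2 fold changes from -0.34 to 0.89 and means of at most 13.1 normalized counts. Gene members of the cluster overlap, so they share regions and are not separate observations.

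Promoters that were themselves gained were few, and few of their genes had an RNA value. The 78 regions at promoters covered 84 windows of 80 genes, 0.258% of all 32619 windows, against 16.7% for lost and 9.79% for shared regions. Of the 80 genes, 16 had a value in the authors' deposited table, and of these 2 were called higher and 3 lower. Scd3, whose sequence is printed above, had a log2 ratio of 6.53 (adjusted p = 1.83e-06, SE 1.33) by the authors' deposited table at a mean of 36.5 normalized counts. Its region covered the start, with 4.94 in DKO_1 and 4.02 in DKO_2, and the nearest Wt peak lay 13569 bp away. Paip1 had 0.92 (adjusted p = 0.000266, SE 0.23) by the authors' deposited table with a region of 6.64 and 4.16 whose nearest Wt peak lay 27 bp away. Btnl4 had -0.85 (adjusted p = 0.0172, SE 0.32) and Sall1 -5.53 (adjusted p = 0.00442, SE 3.14) by the authors' deposited table, the latter at a mean of 9.17 normalized counts. The fifth, the antisense gene Slc13a2os, had -4.76 (adjusted p = 0.0113, SE 3.58) by the authors' deposited table at a mean of 7.88 normalized counts, and reads of overlapping genes cannot be told apart there. These 5 genes were named after their values were seen. At Paip1, Btnl4 and Sall1 the window belongs to a start inside the gene span.

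Gained promoter windows had a higher median GC content than all windows but no larger share of CpG-rich ones. The median GC content was 59.7% in the 84 windows, 53% in all windows, 59.3% in lost and 67.3% in shared windows. The ratio of observed to expected CpG had a median of 0.51, against 0.39 in all, 0.74 in lost and 0.86 in shared windows. CpG-rich windows, with a ratio above 0.6, made up 32.1% (exact interval 22.4% to 43.2%) of gained and 36.0% of all windows, against 68.7% of lost and 89.2% of shared ones. A gained region holds no Wt peak, so a window covered by a Wt peak can be counted only where the gained region reaches another part of it.

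Motif letters in gained promoter windows were near their share in all windows for the 3 most frequent of the 22 motifs searched. They were lower for TEAD, CEBP, ETS AGGAAGT, AP-1, Cdx and GATA, and each of these was also lower in lost and shared windows. Shared windows were lower than gained ones for each but AGGAAGT. In lost and shared windows, GATA letters were in 6.71% and 2.44%, and Cdx letters in 7.24% and 3.66%. KLF/SP letters were in 38.1% of gained windows and 33.5% of all, against 47.1% of lost and 60.1% of shared windows. RUNX letters were in 16.7% of gained windows and 16.6% of all, and the E-box CAGCTG in 16.7% and 16.4%. TEAD letters were in 10.7% and 14.6%, CEBP in 5.95% and 10.9%, and the ETS letters AGGAAGT in 2.38% (0.290% to 8.34%) and 9.38%. AP-1 letters were in 5.95% (exact interval 1.96% to 13.3%) and 7.85%, and Cdx letters in 5.95% and 10.9%. GATA letters were in 3.57% (0.743% to 10.1%) of gained and 11.2% of all windows. HNF4 and NF-kB letters were each in 2 of 84 windows (2.38%, 0.290% to 8.34%), against 0.478% and 0.414% of all windows. Letters of GRHL, CTCF, HNF1, PPAR/RXR and p53 motifs were in 0 of 84 windows, which allows a share of up to 4.30%, and they were in 0.0399% to 2.10% of all windows. With 84 windows these intervals are wide, none of the differences was tested, and the motifs can overlap each other within a window.

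Across the genes named here, 66 gained regions lay within 10 kb of a start, and 24 of them had a Wt ATAC peak within 1 kb while 11 had none within 10 kb. Taller regions did not always go with higher RNA: Psapl1, at 2.80 in DKO_1 and 3.04 in DKO_2, had the highest log2 ratio of the named genes, 7.92 in the authors' deposited table, and Cyp4b1, at 6.70 and 5.30, had -2.58 in the authors' deposited table.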

How the data were processed

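ATAC-seq peak lists of 2 DKO and 2 Wt libraries, 1 Cdx2 ChIP-seq peak list and the authors' table of RNA differences from 2 DKO and 2 Wt libraries were used. Per the submitters' processing notes, which state no roles, the tools were DESeq2, Salmon 1.3.0, MACS2, fastp, Bowtie2 and BWA, with GRCm38 and mm10 as builds. How peaks were called, any shift of transposase cuts and the control set against the ChIP reads were not given in the sources used. Peaks were called per library, since the deposited peak names carry the library. Each peak has a fold enrichment ratio, a -log10 p and a -log10 q, and a score, all deposited by the authors. Peak lists hold no counts, so depth is unknown. In the authors' table the mean normalized count (a signal scaled by the authors), the log2 fold change with its SE, the p-value and the adjusted p-value are the authors' own, per the file headers, with DKO over Wt. The deposited p of that table is for most genes not the p that fold over SE would give.

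Regions were merged with pandas 2.3.3, scipy 1.17.1 and numpy 2.4.6 under Python 3.11.15 from peaks sharing at least 1 bp, and checked on simulated peak lists. Genes were placed by RefSeq GRCm38.p6, with a strand-aware start for 12078 of 16314 genes and both span ends for the others. Of 17511 rows, 16372 had a position, and rows whose position several rows share were dropped. No test was run on the members, since the rule uses all 4 ATAC lists. Exact (Clopper-Pearson) 95% intervals cover counting error only, and genes or regions are not replicates. Alternatives changed the q threshold, list length, overlap, merging gap, gene link, call rule and libraries used.

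The members and the 20 gene lists were chosen with earlier results of these data known. Genes named are, among those averaging at least 50 normalized counts and with a start within 10 kb of a gained region, the 10 highest and 8 lowest called, the 6 with the most regions, and up to 4 per list, and regions named are the 12 strongest and 3 on each side of the threshold. Not every gene so named is described, some are not reported here, and those chosen later are marked. The planned gene-level RNA test and motif search in region sequence were not run, because no pairing of transcripts with genes and no genome was used. Transcript-level values were not used. A motif search over RefSeq promoter windows took its place.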

Additional observations from a re-analysis of the deposited data

How the results depend on the processing

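The count of gained regions stayed between 4636 and 5305 with a -log10 q of at least 2 in all lists (4871), lists cut to equal length (4847), an overlap of 50% (4990), peaks up to 500 bp apart merged (5133), Cdx2-overlapping regions kept (5305) and, added after seeing the data, no Wt peak within 1 kb (4636). It was 678 at a -log10 q of at least 5 in all lists, where regions with a weaker Wt peak can also count. Leaving out 1 ATAC library gave 5643 to 33159: 13974 without DKO_1, 33159 without DKO_2, 5643 without Wt_1 and 5817 without Wt_2, which by construction drops 1 condition each. The share of linked genes called higher (16.9%) was 20.2% for the nearest gene, 19.3% for regions inside the span, 10.4% for calls of at least 2-fold (background 11.4%) and 23.8% for means of at least 50 (background 25.8%), and 16.2% to 18.3% with a library left out. The share called lower (23.2%) was 26.6% within 1 kb, 20% within 50 kb and for the nearest gene, and 16.8% at 2-fold (background 13.4%), and 20.3% to 23.5% with a library left out. The cause of these shifts was not tested. Of the other alternatives, 12 left the share called higher and 11 the share called lower within the interval of the value reported. Among these were 3 added after seeing the data: without chromosome X (16.7% and 23.6%), strand-aware starts alone (17.3% and 22.9%) and without stromal and B cell markers (16.9% and 23.0%). The last left 1040 of 1043 genes, so it could hardly move the shares. At a -log10 q of at least 5, 12 promoter windows remained, of which 0% held AP-1 letters, 25% Cdx, 0% GATA and 33.3% KLF/SP.

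No paired analysis was possible because the values reported come from no test over libraries: the peak lists hold no counts, and the authors' gene table holds no values per library. Also not run for these reasons were the edgeR fit by gene with its DESeq2, scaling, filter, replicate block and leave-one-out alternatives, and the motif search in summit windows. With 2 libraries per label and no counts, a region missing from a list cannot be told apart from one below the listing threshold.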
